A study of Homo sapiens with 5 samples.

Results

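The 31 genes described here are the human semaphorins (20 genes), plexins (9 genes) and neuropilins (2 genes), taken by exact gene name from count tables of 43714 genes. Of these, 28 had enough reads to be tested. They were measured in Rh41, an established cell line of alveolar rhabdomyosarcoma, a tumour whose cells resemble muscle precursors. Cells were transfected with an siRNA against H3F3A (n = 3 libraries, replicates 1, 2 and 3) or with a scrambled siRNA (n = 2 libraries, replicates 1 and 3), both with Lipofectamine RNAiMAX, and poly-A RNA was taken after 48 hours. H3F3A is one of the genes for the histone variant H3.3, and all libraries come from the same line. Nothing in the labels tells if each replicate had its own culture, and the p-values speak of the spread among libraries, part of which may be technical. SEMA6B was already known to be among the abundant transcripts that fell when this group of genes was chosen, so its fall is given here as a starting point and not as separate evidence.

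Semaphorins are secreted or membrane-bound guidance proteins that steer growing axons, vessels and migrating cells. Plexins are their receptors and carry an intracellular domain that switches off Ras-family GTPases. Secreted class 3 semaphorins mostly need a neuropilin as the binding co-receptor, whereas membrane-bound classes bind plexins directly. In muscle and nerve tissue the family takes part in motor axon guidance and in the placing of Schwann cells and vessels.

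Assigned counts ran from 28493573 to 30705963 per library after H3F3A siRNA and were 30353965 and 29776931 in the scrambled libraries. H3F3A transcripts stood at 9.38, 10.5 and 8.54 CPM (counts scaled to library size) after H3F3A siRNA, against 294 and 269 CPM in scrambled libraries, a 29.7-fold lower level (edgeR adjusted p = 9.04e-21). The 8 markers of alveolar rhabdomyosarcoma or skeletal muscle lineage were all present. MYOD1, the master regulator of myogenesis, ranged from 1057 to 1488 CPM over the libraries, and the summed list lay at 4514 to 4614 CPM after H3F3A siRNA and at 5185 to 6125 CPM in scrambled libraries. Of 5 endothelial markers 1 averaged over 1 CPM, with sums of 2.85 to 3.11 CPM after H3F3A siRNA and 3.70 to 3.87 CPM in scrambled libraries. Of the neural and glial markers 2 of 5 did so, and of the epithelial markers 2 of 4. The summed neural and epithelial lists overlapped between groups. The 8 tumour or muscle lineage markers did not move together. TFAP2B stood higher, at 79.5, 81.5 and 78.4 CPM after H3F3A siRNA against 57.1 and 56.4 CPM in scrambled libraries. MYOG, PAX3 and NOS1 overlapped between groups, and MYOD1, DES, FGFR4 and CHRNA1 were lower without overlap. Over all tested genes 17.1% were lower without overlap and 16.0% higher. For genes with a GC content of at least 60%, 42.1% were lower without overlap. The marker values have no GC correction. The part of these marker levels in the results was not tested. Scrambled replicate 1 stood apart by its dependence on transcript GC content. The slope of log2 CPM, centred on the average library, was -0.06, -0.04 and -0.04 per 10 GC points after H3F3A siRNA, against 0.15 in scrambled replicate 1 and -0.01 in scrambled replicate 3. This trend touches the results below, because the semaphorins and plexins differ widely in GC content, from 34.9% in SEMA3D to 67.7% in SEMA6B.

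SEMA6B, a transmembrane class 6 semaphorin, made up most of the semaphorin reads. It accounted for 68.2%, 72.6% and 66.2% of them after H3F3A siRNA and for 78.8% and 77.0% in scrambled libraries. Summed over the 20 genes, semaphorin reads came to 1830, 2226 and 1738 CPM after H3F3A siRNA, against 3016 and 2650 CPM in scrambled libraries. The groups did not overlap in either quantity. Without SEMA6B the sums were close, at 593 ± 14.7 CPM after H3F3A siRNA (SD, n = 3) and 625 ± 21.6 CPM in scrambled libraries (SD, n = 2). The difference in the sum of semaphorin reads thus lay mostly in 1 gene. In bulk RNA such as this, fewer expressing cells and less RNA per cell cannot be told apart.

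**Figure D1:**
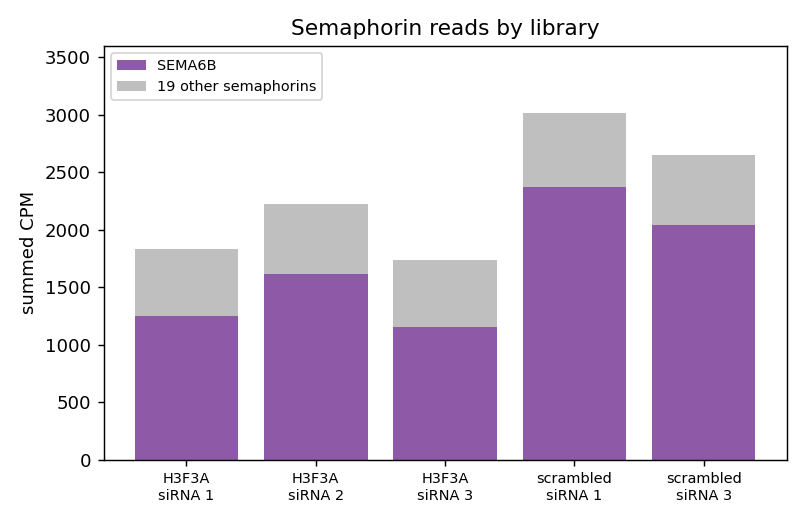
Summed CPM (vertical axis) of SEMA6B and of the 19 other semaphorins in each library, with the 3 H3F3A siRNA libraries on the left. SEMA6B makes up 66.2% to 78.8% of each bar, and the grey part, from 583 to 640 CPM, varies little.

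Levels between genes were compared as RPKM (CPM per kilobase of transcript), using the longest coding transcript of GENCODE 29. On this scale SEMA6B stood at 336 ± 61.6 RPKM after H3F3A siRNA (SD, n = 3) and 554 ± 59.5 RPKM in scrambled libraries (SD, n = 2). The next semaphorin by length-scaled level was SEMA4C, a class 4 ligand of plexin B2, at 53.9 and 64.8 RPKM in H3F3A siRNA and scrambled libraries. Among receptors PLXNB2 led with means of 107 RPKM after H3F3A siRNA and 126 RPKM in scrambled libraries, followed by PLXNA1 with 38.4 and 48.6 RPKM and PLXND1 with 27.0 and 32.9 RPKM. NRP2 stood at 9.66 and 10.1 RPKM and NRP1 at 2.75 and 3.3 RPKM. At the other end, SEMA3F, SEMA3G and SEMA7A had too few reads for a test.

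**Figure D2:**
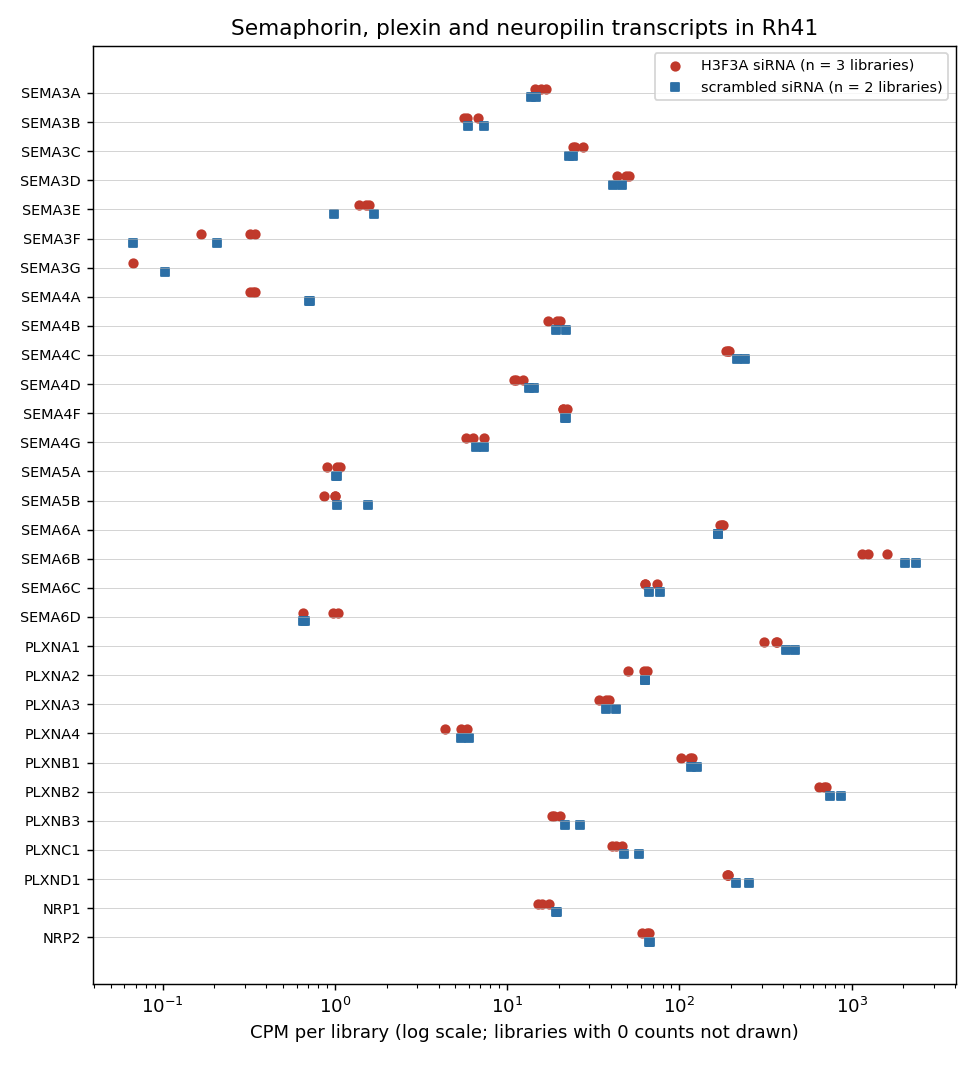
CPM of each gene in each library on a log axis, with red circles for H3F3A siRNA (n = 3) and blue squares for scrambled siRNA (n = 2). Libraries with 0 counts, among them all 5 for SEMA7A, are not drawn. SEMA6B and PLXNB2 are the most abundant by CPM, and their red points all lie left of the blue ones.

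Of the 28 tested genes, 3 were called lower after H3F3A siRNA and none higher (edgeR quasi-likelihood test, Benjamini-Hochberg adjusted p under 0.05 over 15859 genes). Over all genes tested, 2.69% were called lower and 0.504% higher (427 and 80 genes, or 323 and 116 with upper-quartile scaling). The 3 were SEMA6B, PLXNA1 and PLXND1, and each has a transcript GC content above 60%. SEMA6B was already known to have fallen when the genes were chosen. It is among the 3, and among the 10, 4 and 11 genes counted below. Each comparison of these counts with all genes thus includes the gene that drew attention to the group. Among all tested genes with a GC content of at least 60%, 11.8% were called lower, and 11 of the 28 genes described here belong to that range. At an unadjusted p under 0.05, 10 genes lay lower and 0 higher by edgeR, against 10.9% and 5.91% of all genes. DESeq2 called 4 lower and 0 higher at an adjusted p under 0.05. It called 4.41% lower and 0.504% higher of the 10716 genes to which it gave an adjusted p. SEMA3E, SEMA4A, SEMA5A, SEMA5B and SEMA6D were not among those. Leaving out a library changed the count called lower by edgeR. It was 1 without scrambled replicate 1 (0.501% of all genes) and 5 without scrambled replicate 3 (10.6% of all genes, with 4.54% higher). It was 0 without H3F3A siRNA replicate 1 (0.0575% of all genes; 9 lower and 1 higher at an unadjusted p under 0.05, against 8.14% and 4.65% of all genes), 1 without replicate 2 (0.977%) and 2 without replicate 3 (1.62%). The median log2 fold change was -0.12 for the 28 genes and 0.01 for all tested genes. In 11 of the 28 genes every H3F3A siRNA library lay below both scrambled libraries, a pattern seen in 17.1% of all tested genes and in 42.1% of those with a GC content of at least 60%. Of the 11, 7 had such a GC content, 2 lay between 50% and 60% (24.8% of all genes there, with 2.49% called lower) and 2 lay under 50% (6.28% of all genes there, with 0.473% called lower). In SEMA3C and SEMA6A the H3F3A siRNA libraries all lay above, as in 16.0% of all tested genes.

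SEMA6B is known as a ligand of plexins A2 and A4. It stood at 1247, 1616 and 1151 CPM after H3F3A siRNA, against 2375 and 2040 CPM in scrambled libraries. All 3 H3F3A siRNA libraries were below both scrambled ones, with replicate 2 clearly above the other two. SEMA6B fell 1.65-fold (log2 fold change -0.72, SE 0.11, edgeR adjusted p = 0.00347). By mean CPM it ranked 2 among the 427 genes called lower. Its order among all genes by CPM was 56, 27 and 62 after H3F3A siRNA, against 17 and 18 in scrambled libraries. The spread within the H3F3A siRNA group was wide for so abundant a transcript. Its coefficient of variation there was 18.4%, against a median of 3.75% over 2510 genes of at least 100 CPM. Of these 6, SEMA6B itself among them, had a value at least as high as that of SEMA6B.

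The call on SEMA6B was lost when any of 3 libraries was left out, while its log2 fold change stayed below 0. Wherever a single scrambled library is left, the spread comes from the H3F3A siRNA libraries alone, and the lone library is assumed to vary like them. The log2 fold change of SEMA6B was -0.61 (edgeR adjusted p = 0.446) without scrambled replicate 1 and -0.83 (adjusted p = 0.0770) without scrambled replicate 3. It was -0.67 (adjusted p = 0.0837) without H3F3A siRNA replicate 1. The call held without H3F3A siRNA replicate 2, at -0.88 (adjusted p = 1.91e-05), and without replicate 3, at -0.62 (adjusted p = 0.000131).

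The other class 6 semaphorins were not called. SEMA6A, which also binds plexins A2 and A4, stood at 177, 180 and 173 CPM after H3F3A siRNA and at 167 CPM in both scrambled libraries. The H3F3A siRNA libraries were thus slightly higher without overlap, with a log2 fold change of 0.08 (95% interval -0.07 to 0.23, edgeR adjusted p = 0.635). SEMA6C stood at 63.5, 74.3 and 63.0 CPM after H3F3A siRNA and at 76.8 and 66.3 CPM in scrambled libraries, and these groups overlapped (log2 fold change -0.10, 95% interval -0.28 to 0.08, adjusted p = 0.621). With the GC correction described below its log2 fold change was 0.12. SEMA6D, a class 6 ligand of plexin A1 known from heart development, had 31, 19 and 30 counts after H3F3A siRNA against 19 and 20 in scrambled libraries.

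Whether SEMA6B changed relative to its relatives and receptors was examined with its log2 ratio to 4 of them within each library. The log2 ratio of SEMA6B to SEMA6A was 2.82, 3.17 and 2.74 after H3F3A siRNA, against 3.83 and 3.61 in scrambled libraries. That to SEMA6C, whose GC content of 64.2% is near that of SEMA6B, was 4.30, 4.44 and 4.19 after H3F3A siRNA and 4.95 and 4.94 in scrambled libraries. The mean differences between groups were -0.81 for SEMA6A, -0.64 for SEMA6C, -0.64 for PLXNA2 and -0.59 for PLXNA4. In all 4 ratios the H3F3A siRNA libraries lay below the scrambled ones. Since SEMA6B was chosen for its fall, these ratios are a description with no test. With GC correction the differences were -0.53, -0.58, -0.41 and -0.36 in the same order. Scaled by length, SEMA6B exceeded PLXNA2 71.1, 71.3 and 52.8 times after H3F3A siRNA and 109 and 92.4 times in scrambled libraries.

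**Figure D3:**
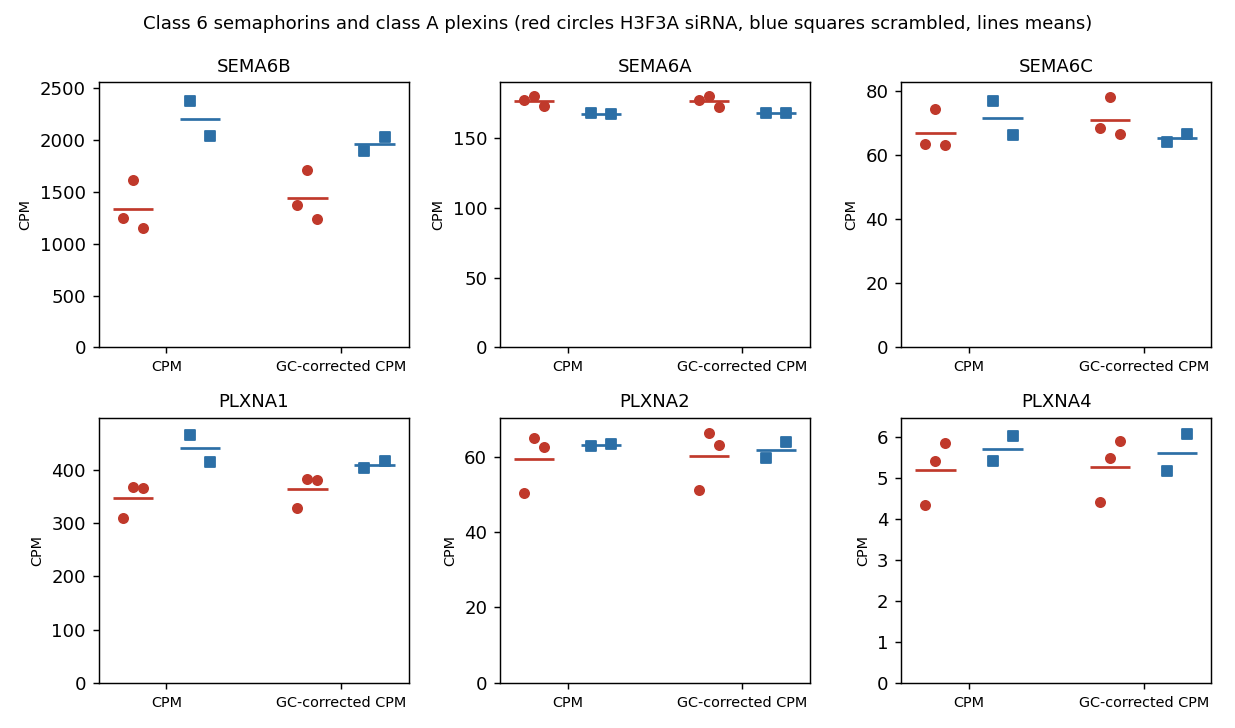
CPM (vertical axes, from 0) of 3 class 6 semaphorins and 3 class A plexins before and after GC correction, with H3F3A siRNA libraries (n = 3, red circles) left of scrambled libraries (n = 2, blue squares) and lines at the means. SEMA6B is lower after H3F3A siRNA in both versions, and the gap narrows with correction from means of 1338 and 2208 CPM before it.

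GC content moved with the fold changes of these genes. All 11 tested genes with a GC content of at least 60% had a log2 fold change below 0 (median -0.27), and 7 of the 11 did with GC correction (median -0.08). Over all genes 7713 of 15859 lay below 0, and 7581 with GC correction. Of the 9 genes under 50%, 3 lay below 0 (median 0.12). Across the 28 genes Spearman's rho between GC content and log2 fold change was -0.66, and across 14377 tested genes with a GC value it was -0.52. These are descriptions over genes that share the same 5 libraries. The 418 tested genes within 2 GC points of SEMA6B had a median log2 fold change of -0.28. Of these 368 lay below 0, and 19.4% were called lower. For the 142 of them with at least 50 CPM the median was -0.31 and 40.8% were called lower. SEMA6B itself was at -0.72, a value that is no support here because it was among those that drew attention to the gene.

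**Figure D4:**
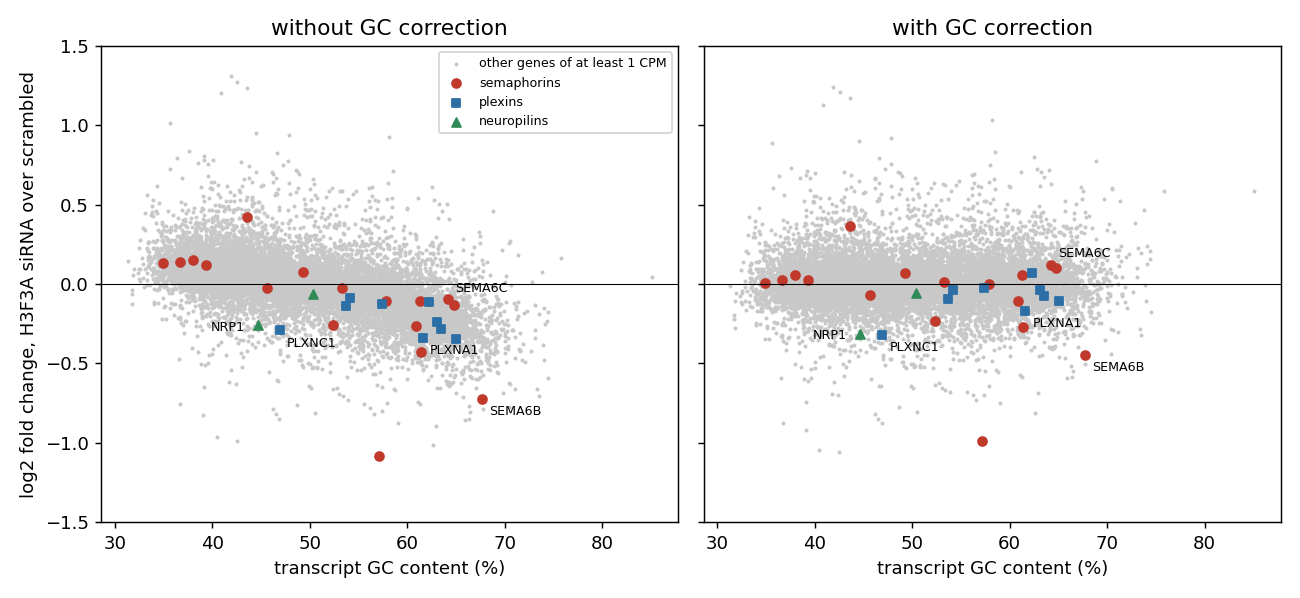
Log2 fold change (vertical axis, H3F3A siRNA over scrambled siRNA) against transcript GC content (horizontal axis) without GC correction on the left and with it on the right. Grey points are other genes of at least 1 CPM, and genes beyond the axis limits, H3F3A among them, are not drawn. The downward slope over GC content on the left is flat on the right, where SEMA6B remains below the cloud's centre at -0.45.

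When each library's trend over GC content was removed, 1 of the 28 genes was called lower, PLXNC1, and none was called higher. Without scrambled replicate 1 as well, PLXNC1 was again the 1 gene called (0.379% of all genes). With this correction 1.17% of all genes were called lower and 0.517% higher. At an unadjusted p under 0.05, 7 of the 28 lay lower and 0 higher, against 6.65% and 6.13% of all genes. The corrected log2 fold change of SEMA6B was -0.45 (SE 0.13, 95% interval -0.75 to -0.14, edgeR adjusted p = 0.190). Its corrected CPM was 1376, 1708 and 1242 after H3F3A siRNA, against 1894 and 2034 in scrambled libraries, so the groups still did not overlap. Spearman's rho with GC content over the 28 genes was -0.15 after correction. All H3F3A siRNA libraries had a lower GC slope than both scrambled libraries. The widest gap, however, lay within the scrambled group, from 0.15 in replicate 1 to -0.01 in replicate 3. H3F3A siRNA slopes, by comparison, ran from -0.06 to -0.04. What part of the trend goes with the groups cannot be told apart with so few libraries.

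**Figure D5:**
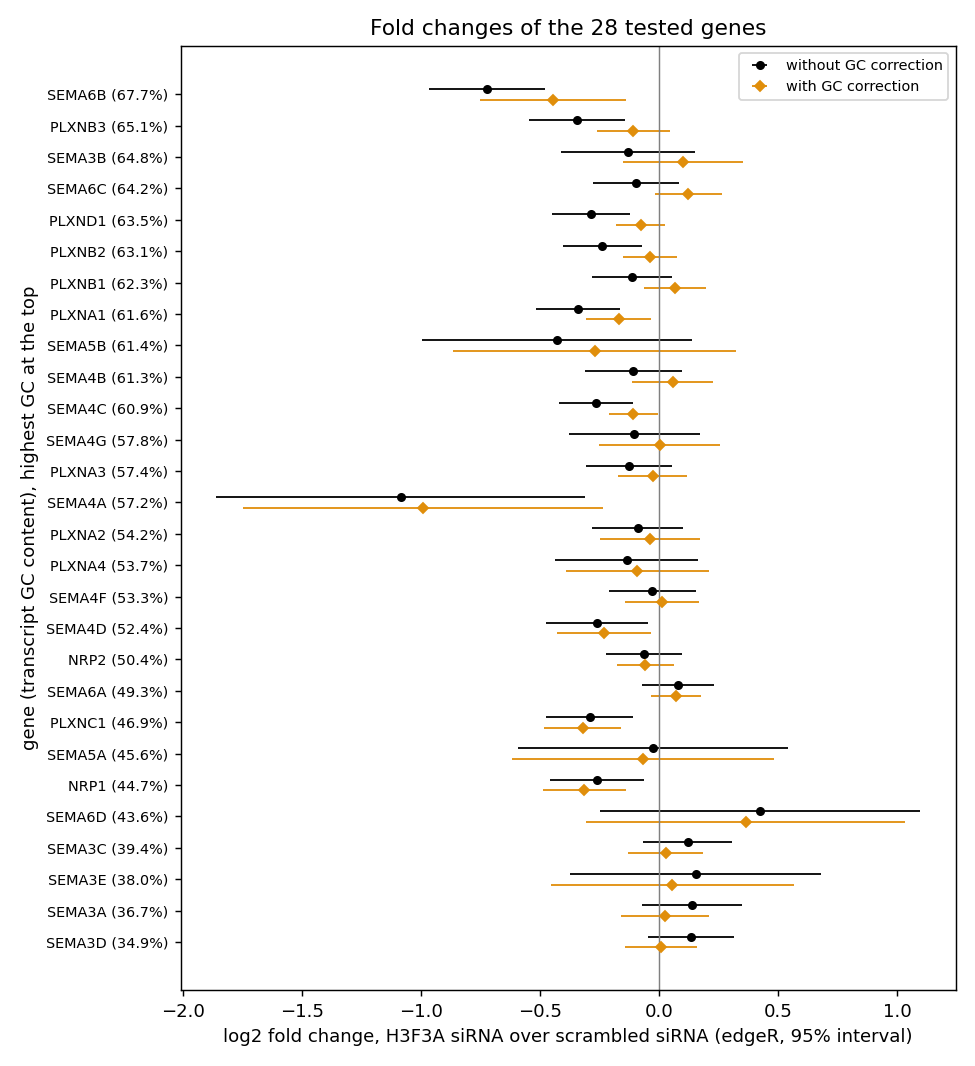
Log2 fold change (H3F3A siRNA over scrambled siRNA) with its 95% interval for the 28 tested genes, ordered from highest to lowest GC content, without GC correction (black) and with it (orange). Black points of the GC-rich genes lie left of 0 and most orange points lie closer to 0, while PLXNC1 and NRP1 move little.

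None of the 5 tested class 3 semaphorins, the secreted group, was called. SEMA3D, a guidance cue for vessels and neural crest cells, was the most abundant of them by length-scaled level, with means of 7.66 RPKM after H3F3A siRNA and 6.98 RPKM in scrambled libraries. Its libraries stood at 43.7, 51.0 and 49.3 CPM after H3F3A siRNA and 41.1 and 46.3 CPM in scrambled libraries, and the groups overlapped. SEMA3C, which acts in heart outflow tract development, had 27.6, 24.7 and 24.2 CPM after H3F3A siRNA against 22.8 and 24.1 CPM in scrambled libraries. The log2 fold changes of SEMA3A, SEMA3C, SEMA3D and SEMA3E ran from 0.12 to 0.15, and these are the 4 tested genes here with the lowest GC content. With GC correction they ran from 0.01 to 0.06. SEMA3A, the repellent first known from axon growth cones, stood at 15.7 ± 1.18 CPM after H3F3A siRNA (SD, n = 3) and 14.3 ± 0.78 CPM in scrambled libraries (SD, n = 2). SEMA3B, known as a tumour suppressor in lung cancer, had a log2 fold change of -0.13 (95% interval -0.41 to 0.15). SEMA3F, a ligand of neuropilin 2, had 5, 10 and 10 counts after H3F3A siRNA and 6 and 2 counts in scrambled libraries, fewer than its antisense gene SEMA3F-AS1 with 30 to 55. In unstranded counts, reads that overlap both genes of such a pair are set aside as ambiguous and counted for neither. Ambiguous reads of all genes made up 4.45% to 4.56% of a file. The strand of the counted reads is not known. SEMA3G, a semaphorin of vessel walls, had 2, 0 and 0 counts after H3F3A siRNA and 3 and 0 in scrambled libraries.

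Of the 6 class 4 semaphorins, which are membrane-bound and bind mainly class B plexins, none was called. SEMA4C was nearest to the threshold, at 188, 192 and 194 CPM after H3F3A siRNA against 242 and 217 CPM in scrambled libraries, with no overlap. Its log2 fold change was -0.27 (SE 0.08, edgeR adjusted p = 0.0535), and -0.11 (adjusted p = 0.359) with GC correction. SEMA4D, the ligand of plexin B1 first described on T cells, stood at 11.3, 12.4 and 10.97 CPM after H3F3A siRNA and 13.4 and 14.3 CPM in scrambled libraries. It too did not overlap, and its log2 fold change of -0.26 (adjusted p = 0.188) moved little with GC correction, to -0.23. SEMA4A, known for roles in immune and retinal cells, had 10 counts in each H3F3A siRNA library and 21 in each scrambled library. Its log2 fold change of -1.08 was the lowest of the 28 genes, with a 95% interval from -1.86 to -0.31 that reflects the low counts (adjusted p = 0.118). SEMA4B, SEMA4F and SEMA4G overlapped between groups, with log2 fold changes of -0.11, -0.03 and -0.10. SEMA4G shares its locus with MRPL43 on the other strand, a gene with 1652 to 2044 counts.

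The class 5 semaphorins, which carry thrombospondin repeats, were near the limit of detection. SEMA5A, a ligand of plexin B3, had 32, 26 and 32 counts after H3F3A siRNA and 30 in each scrambled library. SEMA5B had 26, 29 and 31 counts after H3F3A siRNA against 30 and 46 in scrambled libraries (log2 fold change -0.43, edgeR adjusted p = 0.456). SEMA7A, the membrane-anchored ligand of plexin C1 and of integrins, was listed at 0 in all 5 libraries. The tables also hold a numbered copy of SEMA7A, likewise at 0, and reads that match both copies equally would not be counted for either, so its absence is not established.

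All 9 plexins had a log2 fold change below 0, with a median of -0.24, and 2 were called. With GC correction 8 of the 9 plexins lay below 0 with a median of -0.08. Of all 15859 tested genes 7713 lay below 0, and 7581 with GC correction. As given above, 2.69% of all genes were called lower, and 11.8% of those with a GC content of at least 60%. Both called plexins belong to that range. PLXNA1, a receptor for class 3 semaphorins with neuropilins and for SEMA6D, stood at 310, 367 and 366 CPM after H3F3A siRNA, against 467 and 414 CPM in scrambled libraries. Its groups did not overlap, and PLXNA1 fell 1.27-fold (log2 fold change -0.34, SE 0.08, edgeR adjusted p = 0.0288). PLXND1, the receptor of SEMA3E in vessels, stood at 190, 192 and 192 CPM after H3F3A siRNA against 252 and 214 CPM in scrambled libraries and fell 1.22-fold (log2 fold change -0.28, SE 0.08, adjusted p = 0.0493). With GC correction the log2 fold changes were -0.17 (adjusted p = 0.234) for PLXNA1 and -0.08 (adjusted p = 0.552) for PLXND1. Without scrambled replicate 1 they were -0.26 (adjusted p = 0.269) for PLXNA1 and -0.16 (adjusted p = 0.429) for PLXND1. PLXNA1 was not called without H3F3A siRNA replicate 1 (-0.26, adjusted p = 0.226) or replicate 2 (-0.38, adjusted p = 0.0672) either, and of the libraries left out in turn only scrambled replicate 3 left the call on PLXND1 in place. Of the 16 alternatives, PLXNA1 was called in 11 and PLXND1 in 5.

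PLXNC1, the receptor of SEMA7A, took the opposite course under GC correction. It stood at 40.8, 46.3 and 42.7 CPM after H3F3A siRNA and at 47.9 and 58.0 CPM in scrambled libraries, without overlap but with a wide gap between the scrambled libraries. Its log2 fold change was -0.29 (edgeR adjusted p = 0.0753) and -0.32 (adjusted p = 0.0442) with GC correction. Without scrambled replicate 1 it was -0.43 (adjusted p = 0.0122), and without scrambled replicate 3 it was -0.15 (adjusted p = 0.268), each against a single scrambled library. CEP83 overlaps PLXNC1 on the other strand and had 436 to 539 counts.

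The promoters of these 3 plexins are shown because PLXNA1 and PLXND1 were called in the test without GC correction and PLXNC1 in the test with it. The windows run from 250 bases before to 50 after the gene start and come from RefSeq (GRCh38.p14), which holds a window for 27 of the 31 genes. They are printed 5′ to 3′ on the gene's strand, with each match to the GC box GGGCGG, on either strand, in capitals. PLXNA1 is at chr3:126982865-126983164 on the plus strand, PLXND1 at chr3:129606627-129606926 on the minus strand and PLXNC1 at chr12:94148327-94148626 on the plus strand.
PLXNA1: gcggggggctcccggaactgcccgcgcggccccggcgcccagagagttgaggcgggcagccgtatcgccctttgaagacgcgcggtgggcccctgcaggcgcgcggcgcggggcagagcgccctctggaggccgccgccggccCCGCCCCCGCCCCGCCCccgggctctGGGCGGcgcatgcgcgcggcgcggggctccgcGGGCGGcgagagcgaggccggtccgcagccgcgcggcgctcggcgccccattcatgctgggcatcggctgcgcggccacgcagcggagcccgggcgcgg
PLXND1: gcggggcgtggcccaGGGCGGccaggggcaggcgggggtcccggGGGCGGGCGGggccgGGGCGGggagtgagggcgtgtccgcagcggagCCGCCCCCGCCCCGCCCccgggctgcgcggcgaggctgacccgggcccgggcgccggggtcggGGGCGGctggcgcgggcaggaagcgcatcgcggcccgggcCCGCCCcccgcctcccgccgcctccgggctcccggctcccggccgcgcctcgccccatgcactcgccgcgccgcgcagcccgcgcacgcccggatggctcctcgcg
PLXNC1: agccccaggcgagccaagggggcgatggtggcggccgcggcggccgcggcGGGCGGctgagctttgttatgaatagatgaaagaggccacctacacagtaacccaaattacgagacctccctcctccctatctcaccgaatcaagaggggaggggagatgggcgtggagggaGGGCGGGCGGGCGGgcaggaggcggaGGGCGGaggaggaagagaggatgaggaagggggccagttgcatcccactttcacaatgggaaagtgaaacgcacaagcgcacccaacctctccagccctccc
The GC content of the window was 83.0% for PLXNA1, 87.3% for PLXND1 and 64.0% for PLXNC1, against a median of 58.7% over 35116 windows. The GC box occurred 5 times in the PLXNA1 window, 9 times in that of PLXND1 and 5 times in that of PLXNC1, overlapping matches counted. It occurs at least once in 45.0% of all windows, and TATAAA, in 11.5% of them, occurred in none of the 3.

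The class B plexins, receptors of class 4 and 5 semaphorins that act on RhoA through exchange factors, were not called. PLXNB2, the most abundant plexin, stood at 646, 713 and 690 CPM after H3F3A siRNA against 863 and 747 CPM in scrambled libraries (log2 fold change -0.24, edgeR adjusted p = 0.114). PLXNB3 stood at 18.3, 20.2 and 18.8 CPM after H3F3A siRNA and at 26.6 and 21.8 CPM in scrambled libraries (log2 fold change -0.34, adjusted p = 0.0545), and it overlaps SRPK3 on the same strand. Neither gene overlapped between groups. Their corrected log2 fold changes were -0.04 for PLXNB2 and -0.11 for PLXNB3. PLXNB1, the receptor of SEMA4D, overlapped between groups and had a log2 fold change of -0.11 (95% interval -0.28 to 0.05).

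The remaining class A plexins overlapped between groups. PLXNA2 stood at 50.4, 65.1 and 62.6 CPM after H3F3A siRNA and at 62.8 and 63.4 CPM in scrambled libraries, so that H3F3A siRNA replicate 1 alone was low (log2 fold change -0.09, 95% interval -0.28 to 0.10). PLXNA4 was scarce, at 4.36, 5.41 and 5.86 CPM after H3F3A siRNA against 5.42 and 6.03 CPM in scrambled libraries. PLXNA3, a receptor for SEMA3F with neuropilin 2, had a log2 fold change of -0.13 (95% interval -0.31 to 0.05), and LAGE3 overlaps it on the other strand. The known receptors of SEMA6B thus gave no call, while intervals of this width still allow changes of up to about -0.28 for PLXNA2 and -0.44 for PLXNA4 on the log2 scale.

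Neither neuropilin was called. NRP1, the co-receptor of SEMA3A and of VEGFA, stood at 15.9, 17.4 and 15.2 CPM after H3F3A siRNA against 19.3 and 19.4 CPM in scrambled libraries. The groups did not overlap, with a log2 fold change of -0.26 (SE 0.10, edgeR adjusted p = 0.145), and -0.31 (adjusted p = 0.0678) with GC correction. NRP2, the co-receptor of SEMA3F and of VEGFC, stood at 61.1, 65.2 and 66.7 CPM after H3F3A siRNA and at 66.5 and 67.9 CPM in scrambled libraries, a log2 fold change of -0.06 (95% interval -0.22 to 0.10).

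Beyond the family itself, a list of 64 genes of semaphorin signalling was read from the same test, covering co-receptors, neuropilin ligands of the VEGF family, small GTPases and their regulators, MICAL and CRMP proteins, kinases, actin and PDZ partners, and processing proteases. Of 59 genes tested, 5 were called lower and none higher (edgeR adjusted p under 0.05), against 2.69% and 0.504% of all genes. At an unadjusted p under 0.05, 11 lay lower and 2 higher, against 10.9% and 5.91% of all genes. DESeq2 called 5 lower and 0 higher, against 4.41% and 0.504% of the 10716 genes to which it gave an adjusted p. The median log2 fold change was -0.05. The angiogenic ligand VEGFA fell 1.29-fold and stood at 36.2, 35.3 and 36.1 CPM after H3F3A siRNA against 48.3 and 44.0 CPM in scrambled libraries (adjusted p = 0.0140). VASP, an actin filament regulator of the Ena/VASP family, fell 1.29-fold (adjusted p = 0.0101), and L1CAM, the adhesion molecule that joins the SEMA3A receptor complex, fell 1.28-fold (adjusted p = 0.0167). LIMK1, the kinase that inactivates cofilin, and VEGFB, a ligand of neuropilin 1, each fell 1.24-fold (adjusted p = 0.0364 for LIMK1 and 0.0449 for VEGFB). L1CAM, LIMK1 and VEGFB have a GC content of at least 60%, a range where 11.8% of all tested genes were called lower. VASP (59.4%) and VEGFA (51.3%) lay between 50% and 60%, where 2.49% were.

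With GC correction VEGFA (log2 fold change -0.35, edgeR adjusted p = 0.00622) and VASP (-0.24, adjusted p = 0.0201) were still called, and L1CAM (adjusted p = 0.0506), LIMK1 (adjusted p = 0.160) and VEGFB (adjusted p = 0.841) were not. Genes of the list called with the correction and not in the test without it were NRCAM, an L1-family co-receptor, at -0.39 (adjusted p = 0.0390), the plexin-binding GTPase RND3 at -0.36 (adjusted p = 0.00531), and DPYSL4, a CRMP protein, at 0.49 (adjusted p = 0.0233). These 3 were named after their values were seen. With the correction 4 of the 59 genes were thus called lower and 1 higher, against 1.17% and 0.517% of all genes. Without scrambled replicate 1, NRCAM was the 1 gene of the list called. Without H3F3A siRNA replicate 1 or replicate 2 the list gave 0 calls by edgeR. At an unadjusted p under 0.05, 10 lay lower and 2 higher without replicate 1, against 8.14% and 4.65% of all genes. Without replicate 2 these were 9 lower and 0 higher, against 8.79% and 4.15% of all genes. Without H3F3A siRNA replicate 3 the list gave 3 lower at an adjusted p under 0.05, against 1.62% of all genes. None of the 7 exchange factors and GTPase-activating proteins and none of the 8 MICAL and CRMP proteins was called before correction, and MICAL2 came nearest at -0.38 (adjusted p = 0.0506). KDR, the VEGF receptor of endothelium, had 0, 0 and 1 counts after H3F3A siRNA and 0 in both scrambled libraries.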

How the data were processed

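Poly-A RNA was measured in 5 libraries, grouped by their titles. Poly-T capture preceded a NEBNext Ultra preparation, per the labels' protocols. Tools listed in the submitters' processing notes, with no roles given, include STAR 2.5 and HTSeq 0.6.1, and the build is hg19. The authors deposited raw counts, 1 table per library, laid out as STAR writes them. The unstranded counts were used, since the stranded columns split evenly (49.9% to 50.1%). The 4 summary lines name no gene and were left out. Unmapped reads made up 4.84% to 5.48% and reads overlapping no gene 9.17% to 10.2% of a file.

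Genes were kept by filterByExpr (minimum count 10, total 15), scaled by TMM and tested with edgeR 4.0.16 in R 4.3.3 (quasi-likelihood, robust, no covariates), adjusted over 15859 genes. CPM used TMM library sizes. Numbered copies of genes (4791 of 43714 rows) stayed separate. GC content and length came from GENCODE 29, with a GC value for 90.7% of tested genes. GC correction subtracted a loess curve (span 0.3) per library, fitted to genes of at least 1 CPM. Fits were tested on simulated data. Alternatives were DESeq2 1.42.0 (size factors and test), upper-quartile scaling, 2 filters, added copies, no robust fit, GC correction, each library left out and a replicate block.

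Genes named were all 31 by name, H3F3A, cell type markers, genes overlapping a family member, and called genes of the signalling list. From that list MICAL2, named for its value, and KDR, which was not tested, were also named. Neither was called in the main test. The genes and lists were chosen with earlier results of these data known. The smallest effects are limited by 3 and 2 libraries per group, and no interval covers more than the spread between them. A list of immune cell markers is not reported here.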

Additional observations from a re-analysis of the deposited data

How the results depend on the processing

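Every tested gene of the family that was called in the main test or an alternative was lower in all 16 alternatives. Counts of calls moved with the libraries. Of the family 3 genes were called lower, 6 with no low-count filter, 1 with GC correction, 1 with GC correction and without scrambled replicate 1, and between 0 and 5 when 1 library was left out. No gene of the family was called higher in any. Without H3F3A siRNA replicate 1, where edgeR called 0, 9 lay lower and 1 higher at an unadjusted p under 0.05. Over all genes 427 were called lower and 80 higher. These were 639 lower with no low-count filter, 185 lower with GC correction, 153 higher with no low-count filter, and 62 lower and 19 higher with GC correction and without scrambled replicate 1. They ran from 9 to 1737 lower and from 6 to 744 higher when 1 library was left out, with the fewest calls without H3F3A siRNA replicate 1 and the most without scrambled replicate 3. Of the signalling list 5 were called lower and 0 higher. The list gave 1 lower with GC correction and without scrambled replicate 1, 1 higher with GC correction, and 0 to 10 lower and 0 to 1 higher when 1 library was left out. SEMA6B was called in 11 of 16 alternatives. Its log2 fold change was -0.45 with GC correction (edgeR adjusted p = 0.190), -0.50 with GC correction and without scrambled replicate 1 (adjusted p = 0.536), and from -0.88 to -0.61 when 1 library was left out. The share of SEMA6B in semaphorin reads differed by -8.89 points (H3F3A siRNA minus scrambled) and by -10.7 to -6.19 points in the alternatives, which were added after the data were seen.

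Replicate numbers 1 and 3 occur in both groups, but nothing says that they mark shared cultures. Deviations from the group means correlated at 0.18 for number 1 and 0.07 for number 3 over 13137 genes. Pairs of unlike number ran from -0.18 to 0.14, the highest for H3F3A siRNA replicate 2 with scrambled replicate 3. The scrambled libraries deviate from their mean as mirror images, so these values cannot decide on pairing. With a replicate block, which leaves 1 residual degree of freedom, 476 genes were called lower and 98 higher, 4 of the family and 6 of the signalling list were lower, and SEMA6B had a log2 fold change of -0.88. Replicate 2 occurs only after H3F3A siRNA, so with the block the group difference rests on replicates 1 and 3. The block is thus no separate check from leaving out H3F3A siRNA replicate 2, where SEMA6B was also at -0.88. With the block and GC correction the counts were 800 lower and 531 higher, with 5 of the family lower and 11 lower and 4 higher of the signalling list. SEMA6B was among these 5, at a log2 fold change of -0.59, again with 1 residual degree of freedom. The causes of these differences were not tested.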
